A study of Mus musculus with 2 samples.

Results

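Resident macrophages of the mouse thoracic aorta were chosen by their transcripts from 2 single-cell libraries. A cell was taken if it held at least 5 UMIs (unique molecular identifiers, counted once per RNA molecule caught) of the complement genes C1qa, C1qb and C1qc together, at least 1 UMI of 2 or more of the 5 markers Folr2, Cd163, Cd209f, Mrc1 and F13a1, and no UMI of Pecam1, Cdh5, Pdgfra, Cd3e and Cd79a, which mark endothelial cells, fibroblasts and lymphocytes. The rule selected 645 of 6744 cells in aorta 1 and 364 of 4698 cells in aorta 2, or 1009 of 11442 cells in all. Position in the vessel wall and length of residence were not measured, so "resident" and any placing in the adventitia rest on the marker names only.

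Both animals were wild-type controls of 1 group, C57BL/6J mice that carried Myh11-CreERT2 and the mT/mG reporter (GFPiSMC). By the sample labels the mice received tamoxifen, 1 mg/d on 5 days, when 3 weeks old, and the thoracic aortas were removed at 12 weeks. The study's methods describe induction in such mice at a later age and a higher dose, so the time since induction is uncertain. The Cre is driven by the smooth muscle promoter Myh11 from a transgene on the Y chromosome, so the mice were male, and recombination swaps the reporter's tdTomato for eGFP where that promoter is active, which is not the case in macrophages. Each aorta was digested in the cold and gave 1 droplet library of viable cells, with no sorting for eGFP. All comparisons are therefore between kinds of cells within the 2 aortas, which are the replicates (n = 2).

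Macrophages that live in tissue are kept by colony-stimulating factor 1 acting on the receptor Csf1r, clear dying cells and debris through scavenger and phosphatidylserine receptors, and supply C1q. In arteries, macrophages with Lyve1, Folr2 and Timd4 are known from the adventitia and are thought to renew locally, whereas macrophages with Ccr2 and much MHC class II are replaced more often from blood monocytes. Folr2 is a folate receptor, Cd163 takes up haemoglobin bound to haptoglobin, Mrc1 is the mannose receptor CD206, Cd209f is a C-type lectin related to DC-SIGN, and F13a1 is the A subunit of coagulation factor XIII.

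The stretches of 250 bases before the transcription start of 4 genes are shown to give the sequence context of genes that the results turn on: 2 of the markers, the chemokine gene Pf4, which was higher in the resident macrophages, and the protease gene Mmp12, which was lower. They are RefSeq sequences of GRCm38.p6, read 5′ to 3′ on the gene's strand, from the most upstream start where a gene has more than 1. Capitals mark GGAAGT, the core of a motif read by ETS factors such as the macrophage factor PU.1, on either strand (ACTTCC on the other), a description of the letters only.
Folr2, chr7:101857191-101857440, minus strand: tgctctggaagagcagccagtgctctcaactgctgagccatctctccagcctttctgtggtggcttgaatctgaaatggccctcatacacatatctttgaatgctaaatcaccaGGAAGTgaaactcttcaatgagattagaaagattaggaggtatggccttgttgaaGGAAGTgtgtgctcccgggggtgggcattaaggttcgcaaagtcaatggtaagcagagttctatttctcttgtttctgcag
Mrc1, chr2:14229164-14229413, plus strand: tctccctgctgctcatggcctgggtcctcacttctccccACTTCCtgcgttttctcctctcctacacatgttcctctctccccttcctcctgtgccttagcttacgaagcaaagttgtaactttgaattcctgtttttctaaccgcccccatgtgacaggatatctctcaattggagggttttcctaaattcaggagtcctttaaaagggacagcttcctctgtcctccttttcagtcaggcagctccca
Pf4, chr5:90772185-90772434, plus strand: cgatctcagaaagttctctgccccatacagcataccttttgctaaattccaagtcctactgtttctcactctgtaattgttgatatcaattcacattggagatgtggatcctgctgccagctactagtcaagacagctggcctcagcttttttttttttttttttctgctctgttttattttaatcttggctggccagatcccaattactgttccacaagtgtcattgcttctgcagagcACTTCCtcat
Mmp12, chr9:7344147-7344396, plus strand: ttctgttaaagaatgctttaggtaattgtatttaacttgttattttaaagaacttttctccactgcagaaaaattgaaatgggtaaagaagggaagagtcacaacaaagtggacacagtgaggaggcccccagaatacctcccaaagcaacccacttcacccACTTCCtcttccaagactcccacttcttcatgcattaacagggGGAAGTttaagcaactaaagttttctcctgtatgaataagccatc

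The 6 letters stood in the same window of 5391 of 27025 genes (19.9%). They stood in 2 of the 5 marker genes, Folr2 and Mrc1, which are the 2 shown, and not in Cd163, Cd209f and F13a1. They stood in 11 of the 25 genes with a sequence out of a list of 30 genes associated with resident macrophages. Every gene shown holds them, so the genes shown are not typical in this respect.

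The 5 markers that chose the cells are given as levels with no test. Levels are UMIs summed over the cells of a group in 1 aorta, scaled to 1000000 UMIs of that group (counts per 1000000, CPM). Folr2 stood at 1240 CPM in aorta 1 and 1712 CPM in aorta 2, and Cd163 at 621 and 732 CPM. Mrc1 stood at 2382 and 2634 CPM, F13a1 at 2353 and 2934 CPM, and Cd209f at 388 and 639 CPM. All of them were higher in aorta 2. Mrc1 was detected in 98.1% and 98.9% of the cells and F13a1 in 96.9% and 98.4%, but Cd209f in only 29.3% and 31.0%. Of the cells of aorta 1, 55 held 2 markers, 157 held 3, 301 held 4 and 132 held 5, and the numbers in aorta 2 were 21, 73, 183 and 87. Most cells thus held 4 or 5 markers, in both aortas.

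The edge of the rule was thinly filled. Cells with 3 or 4 C1q UMIs and at least 2 markers numbered 3 and 2, against a median of 92 and 103 C1q UMIs among the cells chosen. Cells with enough C1q but exactly 1 marker numbered 40 and 21, and those with none 121 and 79. Just inside the marker limit, the cells with 2 markers had 151 and 142 CPM of Lyve1 and 4052 and 4941 CPM of the MHC class II gene H2-Aa. Just outside, the cells with 1 marker had 56.3 and 17.2 CPM of Lyve1 and 6900 and 7657 CPM of H2-Aa. A further 81 and 50 cells failed only by a UMI of an excluded gene, most often Pecam1. Of those, Scrublet, which calls droplets with 2 cells, marked 29 and 13.

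The cells made up 9.56% of the filtered cells of aorta 1 (exact 95% interval 8.87 to 10.3%) and 7.75% of those of aorta 2 (6.999 to 8.55%), a mean of 8.66% ± 1.28 (SD, n = 2). The share depends on which cells the digestion freed. The intervals cover counting error only. Deposited cells numbered 8947 and 6263, with 47009780 and 30919996 UMIs, and the resident macrophages had a median of 5305 and 5248 UMIs per cell. The libraries shared 18 barcodes, of which 3 were resident macrophages in 1 library, and no barcode was a resident macrophage in both.

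Genes outside the rule bore on the name macrophage. Csf1r, the receptor for colony-stimulating factor 1, was at 1252 and 1357 CPM and was detected in 96.3% and 98.4% of the cells. It was detected in at most 1.29% of lymphocytes (cells with Ptprc and either Cd3e or Cd79a, and without Lyz2 and C1q). Leaving out cells with Lyz2 or C1q can understate the background in that group. Adgre1, which encodes F4/80, was at 388 and 413 CPM in the resident macrophages. The pan-leukocyte gene Ptprc was found in 480 and 280 of the cells and the lysozyme gene Lyz2 in all but 1 cell of each aorta. Of the defining genes of other types, Flt3 of dendritic cells and Sall1 of microglia had no UMI in either aorta, and Ly6c2 of classical monocytes was at 2.08 and 0.472 CPM. Other genes of those lists were present: 15 monocyte markers, Fn1 (1383 and 756 CPM) among them, summed to 1638 and 852 CPM with 0 and 3 of them at 0, and 15 dendritic cell markers to 244 and 238 CPM with 3 and 7 at 0. The microglia-associated genes P2ry12 (91.1 and 100.5 CPM) and Gpr34 (153 and 170 CPM) were present nonetheless. The 7 microglia markers summed to 363 and 399 CPM, against 142 and 150.5 CPM in the other cells of the first comparison below. Of the 5 tested, 3 were higher in the resident macrophages and 2 lower, in both the first and the second comparison. The ligand gene Csf1 was low in the resident macrophages (6.51 and 4.72 CPM) and stood at 178 and 188 CPM in fibroblasts (cells with Pdgfra and Dcn but no Ptprc, Pecam1 or Myh11). Il34, the second ligand of that receptor, had no UMI in them.

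RNA of other cells was also present. The 7 smooth muscle markers summed to 2278 and 1334 CPM, against 1993 and 2100 CPM in lymphocytes, which should lack them. The 5 erythroid markers summed to 3681 CPM in aorta 1 and 483 CPM in aorta 2. The reporter eGFP was found in 11.8% of the cells of aorta 1 (exact 95% interval 9.40 to 14.5%) and 8.79% of those of aorta 2 (6.09 to 12.2%) after each cell was thinned to 1000 UMIs, and in 31.0% and 23.6% without thinning. Lymphocytes, also thinned, gave 9.14% and 7.73%, and smooth muscle cells 95.7% and 92.9%. Lymphocytes should lack the recombined reporter, and their share lay just under the interval of the resident macrophages in aorta 1 and inside it in aorta 2, so no recombination is read from these cells. Median depth was 5305 and 5248 UMIs in the resident macrophages and 4199 and 3993 UMIs in the lymphocytes before thinning. No cell was lost by the thinning, since all had 1000 UMIs or more.

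A large part of what the libraries held of several genes came from the resident macrophages, although they were fewer than 1 in 10 cells. They supplied 80.3% and 81.8% of all UMIs of Pf4, which encodes the chemokine CXCL4, and 90.6% and 87.3% of those of the secreted phospholipase gene Pla2g2d. For Timd4, which encodes the phosphatidylserine receptor TIM4, the shares were 72.8% and 74.9%, for Csf1r 75.6% and 77.2%, and for Ccl8 76.1% and 81.9%. For Gas6, a ligand that bridges dying cells to MerTK, the share was 11.7% and 12.0%, and fibroblasts (819 and 808 CPM) and endothelial cells (485 and 529 CPM) also held it. For the markers of the rule the share is partly fixed by the choice of cells: it was 88.6% and 88.9% for Folr2 and 87.9% and 88.0% for Cd163.

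**Figure D1:**
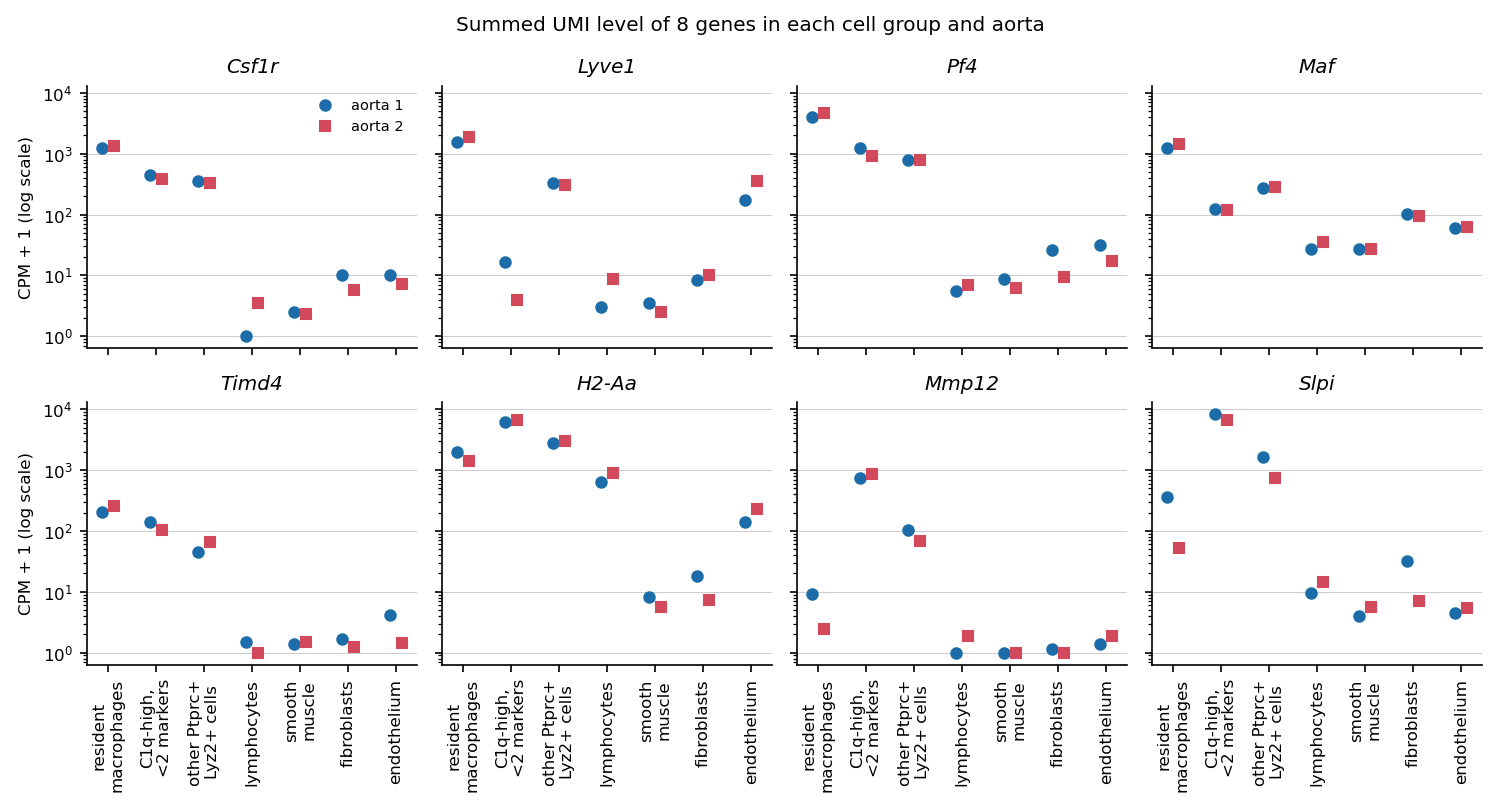
Level of 8 genes as CPM + 1 on a log axis in 7 groups of cells, with 1 point per aorta (circles, aorta 1, and squares, aorta 2). Lyve1, Pf4 and Maf are highest in the resident macrophages in both aortas, while H2-Aa, Mmp12 and Slpi are highest in the C1q-high cells with under 2 markers.

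The first comparison asked how the resident macrophages differed from the other cells with at least 1 UMI of both Ptprc and Lyz2, 396 cells in aorta 1 and 264 in aorta 2. Those are a mixture of other macrophages, monocytes, neutrophils and dendritic cells, with lymphocyte and plasma cell RNA among them, and 200 and 130 of them had at least 5 C1q UMIs. They include 60 and 40 of the cells above that met the C1q and marker limits and failed only by a UMI of an excluded gene. Summed counts were tested with the quasi-likelihood test of edgeR, and a gene was called where its p, after Benjamini-Hochberg adjustment, was under 0.05 and its log2 fold change was beyond 1 in either direction. Of 13526 genes tested, 651 were higher in the resident macrophages (4.81%) and 1531 were lower (11.3%), and the median log2 fold change was -0.04. The genes of the rule, Ptprc and Lyz2 are left out of these counts. Because related genes chose the cells, the p-values do not say whether such a class of cells exists. They say how a gene's difference compares with the spread between the aortas. That spread was estimated jointly with sums of smooth muscle, fibroblast, endothelial and lymphocyte cells, and not from the 2 groups alone.

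Of the list of 30 genes associated with resident macrophages, 27 were higher and 1 lower, with a median log2 fold change of 2.13. The list was drawn up with earlier results of these data known and holds relatives of the rule's genes, such as Cd209b and Cd209g. Its counts, here and below, are therefore no independent evidence for the name. Lyve1, the hyaluronan receptor, stood at 1543 and 1907 CPM against 231 and 205 CPM, a log2 fold change of 2.99 ± 0.28 (SE; edgeR adjusted p = 2.83e-06). Both aortas lay far above both sums of the other cells. The gene lies at chr7:110850607-110863239 on the minus strand (GENCODE M21, mm10). Cbr2, a carbonyl reductase, stood at 989 and 1257 CPM against 143 and 152 CPM (2.93 ± 0.17 on the log2 scale, adjusted p = 1.02e-07). Selenop, the selenium transport protein, stood at 3868 and 4387 CPM against 755 and 733 CPM (2.48 ± 0.10, adjusted p = 1.11e-08). The growth factor gene Igf1, at 330 and 391 CPM, exceeded the other cells (90.9 and 100.5 CPM) by 1.92 on the log2 scale, and Timd4, at 200.5 and 259 CPM, exceeded them (72.9 and 77.0 CPM) by 1.61. Against the other cells with under 5 C1q UMIs alone the folds were larger, with fitted log2 values, which are no bounds, of 9.95 for Lyve1, 5.85 for Cbr2, 5.06 for Selenop, 3.31 for Igf1 and 5.34 for Timd4. The lower gene of the list was Cd209a, a marker of monocyte-derived dendritic cells, at 16.7 and 20.8 CPM against 83.5 and 31.5 CPM.

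The 10 largest folds among genes with at least 50 UMIs were these. The chemokine gene Ccl7 had 31.8 and 39.7 CPM against 3.09 and 1.5 CPM (log2 fold change 3.82), and Ccl2, which draws monocytes through Ccr2, had 53.9 and 34.9 CPM against 4.64 and 6.50 CPM (3.09). Pla2g2d had 120.3 and 110.5 CPM against 8.35 and 13.5 CPM (3.48). The epithelial-type cytokine gene Tslp had 76.0 and 92.5 CPM against 9.27 and 11 CPM (3.07). The flagellin receptor gene Tlr5, the basement membrane gene Nid2, the guanine nucleotide exchange factor gene Plekhg5, the lectin genes Cd209g and Cd209b and the sialoadhesin gene Siglec1 completed the 10 highest, at log2 fold changes from 3.00 for Siglec1 to 3.32 for Tlr5. Against the other cells with under 5 C1q UMIs alone the fitted log2 values of Ccl7, Ccl2, Pla2g2d, Tslp and Cd209g were 10.14, 4.12, 5.47, 5.98 and 12.47.

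Receptors for uptake followed the same pattern in part. Of 23 scavenger and apoptotic cell receptor genes tested, 7 were higher and 1 lower, with a median of 0.64. Stab1, a scavenger receptor, was at 830.4 and 881 CPM against 122 and 110 CPM (2.89 ± 0.20, edgeR adjusted p = 2.88e-07). Colec12, Cd36 and Mertk, with log2 fold changes of 2.11, 1.67 and 1.16, were higher too. Cd5l, a secreted protein of some tissue macrophages, was at 42.4 and 28.3 CPM against 232 and 201 CPM and was the lower gene, but against other cells with under 5 C1q UMIs alone it was higher. Of 22 C-type lectin and Fc receptor genes, 11 were higher and 4 lower. The galactose-type lectins Mgl2 and Clec10a were higher by 2.59 and 2.33 on the log2 scale, and the neonatal Fc receptor gene Fcgrt by 2.24, while Fcgr4 and the pathogen receptor gene Clec4e were lower by 2.28 and 1.76.

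Among 31 transcription factor genes, 6 were higher and 5 lower, with a median of 0.05. Maf, a factor of mature macrophages, was at 1257 and 1467 CPM against 223 and 225 CPM, 2.61 ± 0.12 on the log2 scale (edgeR adjusted p = 1.83e-08). Tcf4 was higher by 1.56. Runx3, Gata6 and Id2 were lower by 2.53, 2.28 and 2.23, with Gata6 at 13.5 and 4.25 CPM in the resident macrophages. The PU.1 gene Spi1 was not called.

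Of 18 genes of iron and haem handling, 6 were higher and 1 lower. The carrier genes Trf and Cp, transferrin and ceruloplasmin, were higher by 1.61 and 1.98 on the log2 scale, and the transferrin receptor gene Tfrc by 1.83, though Tfrc lost its call when cells were thinned to 1000 UMIs (edgeR adjusted p = 0.189). Of 22 complement genes beyond C1q, 7 were higher and 6 lower. The receptor genes C3ar1, C5ar1 and Vsig4 were higher by 1.48, 1.54 and 1.97 on the log2 scale. The integrin gene Itgax, or CD11c, fell to 7.55 and 3.30 CPM from 76.0 and 83.0 CPM. Of 26 trophic factor and cytokine genes, 9 were higher and 6 lower, with the interleukin genes Il1a and Il1b, at log2 fold changes of -3.20 and -4.05, among the lower ones. Il1b was at 15.1 CPM in aorta 1 and 0.472 CPM in aorta 2, against 161 and 158 CPM in the other cells. Of 21 chemokine genes, 8 were higher and 7 lower, and none of 13 chemokine receptor genes was higher while 7 were lower.

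For TGF-β, the pathway that the study was about, the receptor genes went opposite ways. Tgfbr2 stood at 228 and 246 CPM against 96.1 and 100.5 CPM, a log2 fold change of 1.27 ± 0.13 (edgeR adjusted p = 5.1e-06). Tgfbr1 stood at 47.6 and 37.8 CPM against 123 and 112 CPM, a log2 fold change of -1.43 ± 0.18 (adjusted p = 3.16e-05). Of 20 colony-stimulating and cytokine receptor genes 1 was higher, a share near that of all genes, and 4 were lower, Csf3r, Flt3, Tgfbr1 and Il1r2. Against the other cells with under 5 C1q UMIs alone, Tgfbr1 stood at 0.013 on the log2 scale (edgeR adjusted p = 0.984).

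MHC class II was lower. Of 13 genes, 9 were lower and none higher, with a median of -1.24. H2-Eb1 stood at 1659 and 1083 CPM against 3757 and 4011 CPM (-1.50 ± 0.29, edgeR adjusted p = 0.00122), and H2-Aa at 1957 and 1435 CPM against 3834 and 4214 CPM (-1.24 ± 0.29, adjusted p = 0.0048). Both genes were lower in both aortas, and lower in aorta 2 than in aorta 1. Against the other cells with under 5 C1q UMIs alone, the log2 fold changes were -0.95 and -0.86, short of the size needed for a call, and H2-Aa also lost its call without aorta 2 of the resident macrophages. The monocyte receptor gene Ccr2 was at 130.5 and 59.5 CPM against 260 and 255 CPM (-1.37 ± 0.22, adjusted p = 0.000387). Without aorta 2 among the resident macrophages it was at -0.96. The fractalkine receptor gene Cx3cr1 was not called (122 and 89.2 CPM against 178 and 154 CPM).

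The lower genes with the largest folds mark other leukocytes. S100a9 of neutrophils was at 10.2 and 0.944 CPM against 852 and 1839 CPM, and the B cell gene Ms4a1, with no UMI in the resident macrophages, was at 37.1 and 53.5 CPM in the other cells, at least 86.1-fold higher there. The plasma cell gene Igkc was at 202 CPM in the other cells of aorta 1 and 11470 CPM in those of aorta 2, so that its fold rests on 1 aorta more than the other. The lymphocyte markers, 10 of 10 lower, summed to 37.8 and 15.1 CPM in the resident macrophages against 646 and 515 CPM, the neutrophil markers to 150 and 137 CPM against 1764 and 3849 CPM, and 13 of 15 monocyte markers were lower. The rule excluded cells with Cd3e or Cd79a from the resident macrophages and not from the other cells, so the lower lymphocyte genes follow in part from the choice of cells. Scrublet marked 8.33% and 5.68% of the other cells and 2.95% and 2.47% of the resident macrophages. Without all cells that Scrublet marked 1395 genes were lower, and over the 3 comparisons 176 values of named genes kept their call or its absence, while Ccl8 lost it in the comparison by Lyve1 described last. The elastase gene Mmp12 was at 8.07 and 1.42 CPM against 296 and 334 CPM (log2 fold change -5.79), but at -0.46 (edgeR adjusted p = 0.666) against the other cells with under 5 C1q UMIs alone. Of 7 smooth muscle markers 0 were called. Of 7 fibroblast markers 6 were lower, and of 7 endothelial markers 7, beside a rule that excluded cells with Pdgfra, Pecam1 or Cdh5.

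**Figure D2:**
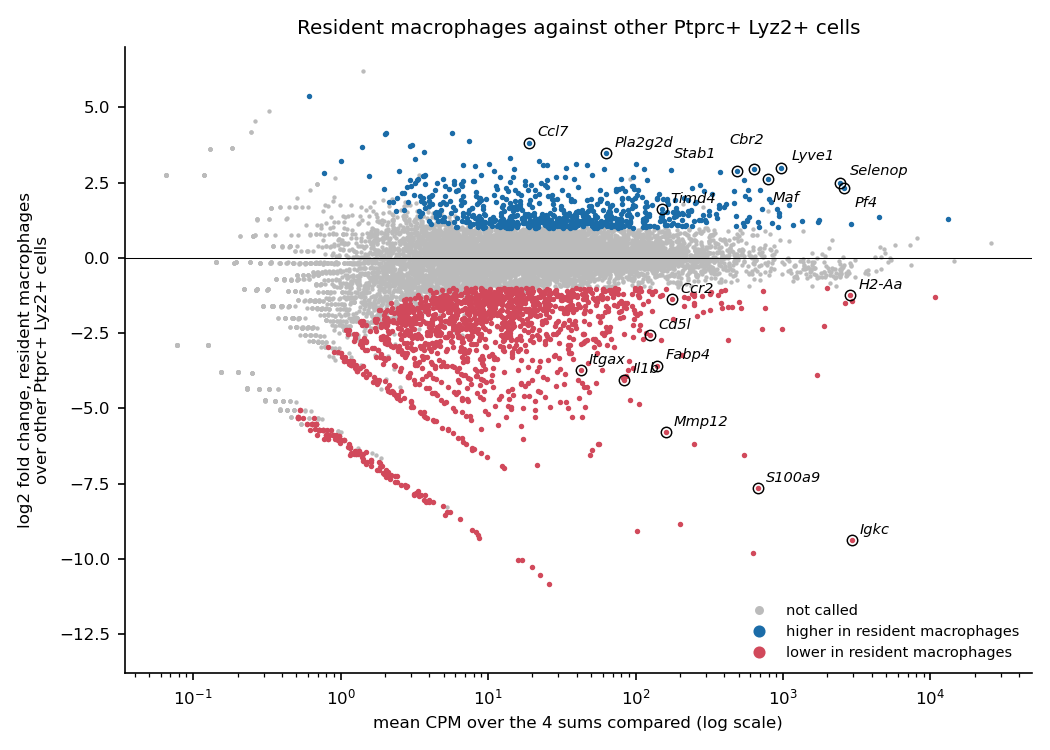
Log2 fold change of 13526 tested genes without those of the rule (resident macrophages over other cells with Ptprc and Lyz2) against mean CPM on a log axis; blue points are the 651 higher and red points the 1531 lower genes. Lyve1, Maf, Selenop and Pf4 are high in both level and fold, Mmp12 (at -0.46 against other cells with under 5 C1q UMIs alone), S100a9 and Igkc lie far below 0, and the diagonal at the lower left holds genes with no UMI in the resident macrophages, whose plotted folds depend on the fit and are no bounds.

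The second comparison set the resident macrophages against the cells most like them: those with at least 5 C1q UMIs and both Ptprc and Lyz2 that lacked the excluded genes but held under 2 of the 5 markers, 117 cells in aorta 1 and 77 in aorta 2. These are part of the other cells above, so both comparisons share the resident macrophages and some of the cells set against them. Their median depth was 6755 and 7416 UMIs per cell, above that of the resident macrophages. They had medians of 99 and 116 C1q UMIs and 444 and 386 CPM of Csf1r. Of 13167 genes tested, 686 were higher in the resident macrophages (5.21%) and 633 lower (4.81%), with a median log2 fold change of 0.08.

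Of the resident macrophage list 25 of 30 genes were higher and none lower, with a median of 2.62. Lyve1 fell from 1543 and 1907 CPM in the resident macrophages to 15.3 and 2.98 CPM in the C1q-high cells with under 2 markers, a log2 fold change of 7.28 ± 0.44 (edgeR adjusted p = 1.82e-08). Several genes had no UMI at all in the latter: Ccl8, a ligand of several CC receptors, was at least 150-fold higher in the resident macrophages, where it was at 196 and 414 CPM, Cd209g at least 91.3-fold, Pla2g2d at least 64.3-fold and Cd209d at least 28.6-fold. These bounds set 3 UMIs in the group with none. Gprc5c, Cd209b, Ccl7, Klhl33, Gfra2 and Foxred2, also with no UMI there, were named by their fitted folds, which give no order against genes such as Lyve1, and their bounds ran from at least 14.05-fold (Foxred2) to at least 23.2-fold (Gprc5c). Cd209b, Ccl7, Klhl33 and Foxred2 lost the call when each cell was thinned to 1000 UMIs, and Gfra2 when 3 markers were required. Requiring 3 markers also moves cells with 2 markers and both Ptprc and Lyz2 into the other group.

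Gas6 was at 691 and 852 CPM against 41.8 and 19.4 CPM (4.47 ± 0.24 on the log2 scale, edgeR adjusted p = 6.43e-09), and Maf was at 1257 and 1467 CPM against 121 and 119 CPM (3.38 ± 0.13, adjusted p = 3.4e-10). The Fc receptor-like gene Fcrls was at 567 and 546 CPM against 18.3 and 22.4 CPM (4.68 ± 0.26, adjusted p = 6.43e-09). The aortas of a group were close together for Maf and Fcrls, while Gas6 differed between the aortas of the C1q-high cells with under 2 markers. The gelatinase gene Mmp9 was at 93.5 and 102 CPM against 7.13 and 5.96 CPM (log2 fold change 3.75), and Stab1, Mgl2 and Clec10a were higher by 3.60, 4.46 and 4.04. Timd4 was not called, at 200.5 and 259 CPM against 139.5 and 103 CPM (0.76 ± 0.19, adjusted p = 0.0113), though it passed under 3 alternatives, nor was Ccr2, at 130.5 and 59.5 CPM against 82.5 and 76.0 CPM. Among the resident macrophages Ccr2 was higher in the cells with few markers, at 422 and 554 CPM in those with 2. It was at 273 and 36.0 CPM in those with 3 and 30.5 and 4.21 CPM in those with 4. With at least 3 markers required, the log2 fold change of Ccr2 turned to -1.64. In that fit the cells with 2 markers that held Ptprc and Lyz2 were counted in the other group, so both groups changed. Beside Timd4, the genes of the resident macrophage list without a call were Ltc4s, Hpgd, Ednrb and Cd302.

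In the opposite direction, the C1q-high cells with under 2 markers held more of a set of genes that were low or, in aorta 1, moderate in the resident macrophages. Mmp12 stood at 8.07 and 1.42 CPM in the resident macrophages and at 738 and 863 CPM in those cells (-7.26 ± 0.29 on the log2 scale, edgeR adjusted p = 7.62e-10). The antiprotease gene Slpi stood at 365 and 51.9 CPM against 8257 and 6571 CPM (-5.24 ± 0.72, adjusted p = 7.58e-05), and the lipoxygenase gene Alox15 at 65.6 and 3.78 CPM against 919 and 1076 CPM (-4.78 ± 0.55, adjusted p = 2.02e-05). In both, aorta 1 of the resident macrophages had more than aorta 2 but far less than either sum of the other group. AA467197, Vmn2r26, the signalling regulator gene Rgs1, the adhesion gene Cadm1, the nuclease gene Dnase1l3, the MHC class Ib gene H2-M2 and Zmynd15 made up the rest of the 10 lowest, and H2-M2 was not called by DESeq2 (adjusted p = 0.0791). Cd5l (-3.98), Itgax (-4.64) and Gata6 (-2.93) were lower here as well.

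MHC class II was lower in the resident macrophages here as well. H2-Eb1, at 1659 and 1083 CPM, faced 6525 and 6686 CPM (-2.39 ± 0.29, edgeR adjusted p = 2.13e-05), and 8 of 13 genes were lower. Of 32 lysosome and lipid genes 10 were lower, 1 was higher, the cholesterol exporter gene Abca1, and 21 were not called, with a median of -0.48. The summed level of the list was 32154 and 34784 CPM against 29252 and 32283 CPM, slightly higher in the resident macrophages. The fatty acid carriers Fabp4 and Fabp5 were lower by 4.18 and 3.85 on the log2 scale, the lipase gene Lpl by 2.53, the exporter gene Abcg1 by 2.95 and the tetraspanin gene Cd9 by 2.65. Cx3cr1 was at 122 and 89.2 CPM against 312 and 271 CPM (-1.57), a call that DESeq2 did not give. Of 21 chemokine genes 9 were higher and 7 lower, the higher ones being Ccl2, Ccl6, Ccl7, Ccl8, Ccl9, Ccl12, Ccl24, Cxcl12 and Pf4, and the lower ones including Ccl3, Ccl4, Cxcl2, Cxcl13 and Cxcl16.

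For the TGF-β pathway, Tgfbr2 was higher (1.09 on the log2 scale) and Tgfbr1 lower (-2.60), and the ligand gene Tgfb2 was at 20.6 and 10.9 CPM against 135 and 222 CPM (-3.49). Of 26 trophic factor and cytokine genes 7 were higher, 5 lower and 14 not called, with a median of -0.33. The higher ones were Igf1, Pdgfc, Bmp2, Vegfb, Gas6, Selenop and the co-receptor gene Nrp1, and the lower ones Pdgfb, Tgfb2, Il1a, Il1b and Tnf. Pdgfc had only 2 UMIs in the C1q-high cells with under 2 markers, a ratio of 20.9 with a counting interval of 5.70 to 174, and Pdgfc lost its call when cells were thinned to 1000 UMIs, as did Ccl2. Proliferation genes summed to 200 and 370 CPM in the resident macrophages against 367 and 346 CPM. Of 16 tested 1 was lower, a share near that of all genes (4.81%). Smooth muscle markers summed to 2278 and 1334 CPM in the resident macrophages against 1183 and 544 CPM (0 of 7 called) and fibroblast markers to 733 and 865 CPM against 336 and 367 CPM (3 of 7 higher). The 5 erythroid markers summed to 3681 and 483 CPM against 49.9 and 55.1 CPM, with Hbb-bs called higher (edgeR adjusted p = 0.0496) and Alas2 at 0 in the other group, and aorta 1 held most of it. The part of these markers in the higher genes was not tested beyond the alternative without cells holding a Myh11 UMI, in which 679 genes were higher and 643 lower.

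**Figure D3:**
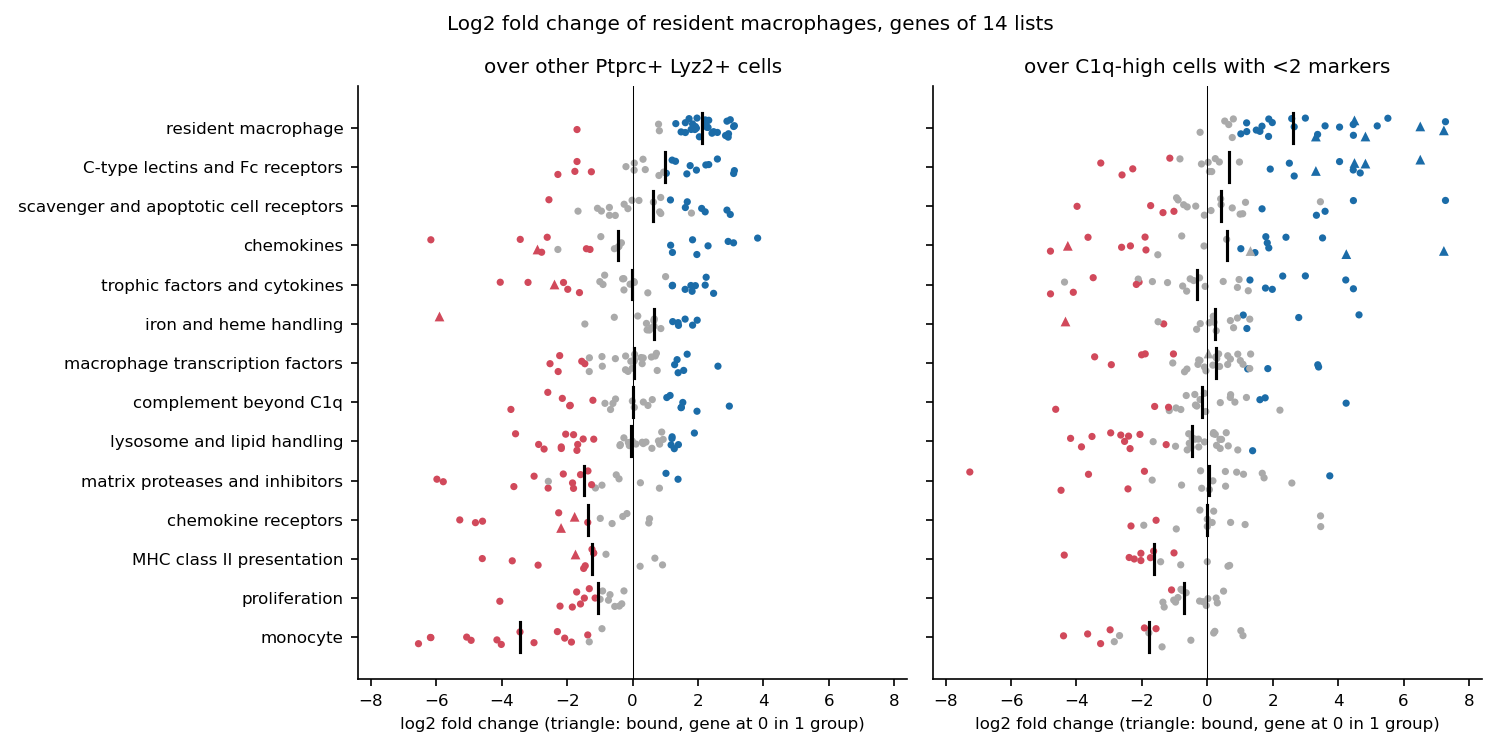
Log2 fold change of each tested gene of 14 lists, for the resident macrophages over the other Ptprc and Lyz2 cells (left) and over the C1q-high cells with under 2 markers (right); blue, red and grey mark higher, lower and uncalled genes, black bars are list medians, and triangles are bounds for genes with no UMI in 1 group. The resident macrophage list has the highest median of the 14 plotted in both panels (2.13 and 2.62), while the medians of the MHC class II list are -1.24 and -1.64. Lists not plotted exceed it: microglia markers in the first comparison (median 2.26) and erythroid markers in the second (5.37, with bounds).

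The resident macrophages varied among themselves in genes that did not choose them. At 1000 UMIs per cell Lyve1 was found in 66.0% of the cells of aorta 1 (exact 95% interval 62.2 to 69.7%) and 71.7% of those of aorta 2 (66.8 to 76.3%), a mean of 68.9% ± 4.0 (SD, n = 2), and without thinning in 84.5% and 88.5%. In lymphocytes at 1000 UMIs it was found in at most 0.429%. That group was chosen without Lyz2 and C1q, so this share can understate the background. Timd4 was found in 18.4% and 19.5% of the resident macrophages at that depth. H2-Aa was found in 46.0% (42.2 to 49.98%) and 36.0% (31.0 to 41.2%), a difference between the aortas that their counting intervals do not span. Ccr2 was rare, at 4.81% and 1.65%, with lymphocytes at 1.24% and 0.858%. Mki67, a gene of dividing cells, was found in 0.620% and 1.37%.

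These genes changed with the number of markers a cell held. Lyve1 was found at 1000 UMIs in 16.4% and 14.3% of the cells with 2 markers, 60.5% and 61.6% of those with 3, 72.1% and 77.6% of those with 4, and 79.5% and 81.6% of those with all 5. Pf4 and Gas6 were also lowest in the cells with 2 markers, at 52.7% and 57.1% and at 21.8% and 9.52%. Ccr2 went the other way. Of the cells with 2 markers 18.2% held it in aorta 1 (9.08 to 30.9%, exact interval) and 23.8% did in aorta 2 (8.22 to 47.2%), against at most 1.52% of those with 4 or 5. The aortas differed for the cells with 3 markers, where it was found in 9.55% of those of aorta 1 (5.45 to 15.3%), an interval that overlaps that of the cells with 2 markers, and in 0 of 73 cells of aorta 2 (up to 4.93%). H2-Aa was found in 61.8% and 76.2% of the cells with 2 markers, 43.9% and 32.9% of those with 3, 44.9% and 32.2% of those with 4 and 44.7% and 36.8% of those with 5. In aorta 1 the interval for 2 markers (47.7 to 74.6%) overlapped that for 3 (36.0 to 52.1%). The cells with 2 markers numbered 55 and 21, so their shares are the least precise.

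**Figure D4:**
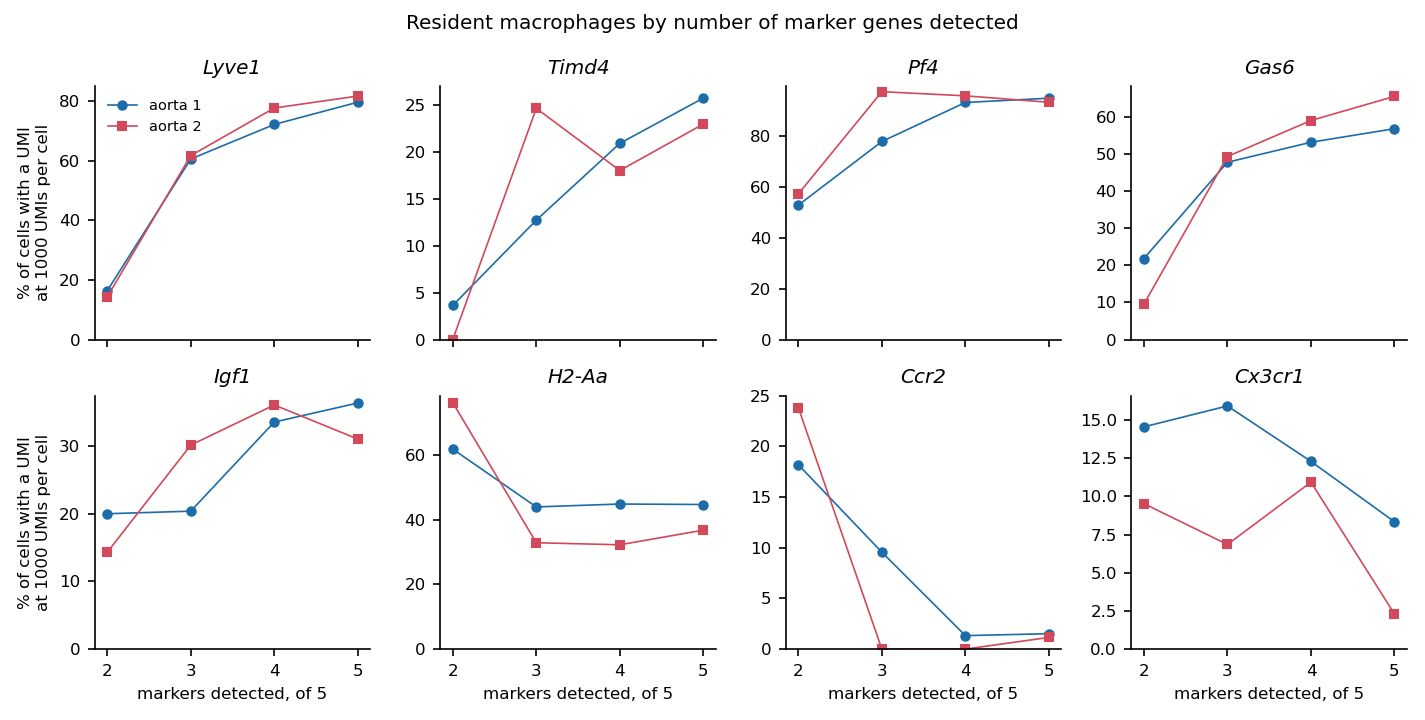
Percent of resident macrophages with at least 1 UMI of 8 genes, each cell thinned to 1000 UMIs, by the number of the 5 marker genes detected; circles are aorta 1 and squares aorta 2. The shares for Lyve1 climb from 16.4% and 14.3% to 79.5% and 81.6%, and those for Ccr2 fall from 18.2% and 23.8% to 1.52% and 1.15%.

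To describe this variation along 1 gene, the cells with a Lyve1 UMI at 1000 UMIs (426 and 261 cells) were compared with those without (219 and 103). Of 13184 genes tested, 44 were higher in the Lyve1-positive cells (0.334%) and 236 lower (1.79%), with a median log2 fold change of 0. Lyve1 is left out of the counts. A cell without a Lyve1 UMI at this depth may still hold the transcript: these cells had 396 and 514 CPM of Lyve1, against 2232 and 2433 CPM. With Lyve1 called on all UMIs of a cell, 236 genes were higher and 251 lower, so the balance depends on how Lyve1 is called. The counts also moved much with the samples. Without aorta 1 among the Lyve1-negative cells they were 5 higher and 65 lower, and without aorta 2 among them 62 and 331.

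Of 29 genes of the resident macrophage list 7 were higher in the Lyve1-positive cells and none lower. Timd4 was at 260 and 297 CPM against 101 and 158 CPM (1.19 ± 0.18 on the log2 scale, edgeR adjusted p = 0.00182), Fcna, a ficolin of the lectin pathway, at 635 and 946 CPM against 264 and 360 CPM (1.37 ± 0.24, adjusted p = 0.00522), and Ednrb, an endothelin receptor, at 420 and 452 CPM against 198 and 165 CPM (1.24 ± 0.23, adjusted p = 0.0068). All 3 lost the call without aorta 1 among the Lyve1-negative cells, and Timd4 also with at least 3 markers. The iron exporter gene Slc40a1 had the largest fold among genes with at least 50 UMIs, at 83.8 and 58.5 CPM against 14.6 and 36.1 CPM (1.77 ± 0.35, adjusted p = 0.0112), followed by Trim30c, Ccl2, Slc9a3r2, Tslp, Trpv4, Fcna, Tlr5, Plekhg5 and Colec12. Slc40a1 lost its call with at least 3 markers and without aorta 1 of either group (log2 fold changes from 1.01 to 3.22 over 17 alternatives, edgeR adjusted p up to 0.443). Of the others, Tlr5 kept its call in 4 of 17 alternatives and lost it with the aorta as replicate block, Ccl2 and Trpv4 lost it in 7, Trim30c in 6, Plekhg5 in 3, Tslp in 2 and Slc9a3r2, Fcna and Colec12 in 1. Igf1, Pf4 and Cx3cr1 were not called (log2 fold changes of 0.44, 0.56 and -0.55).

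Ccr2, Lpl and MHC class II genes were lower in the Lyve1-positive cells. Ccr2 was at 15.0 and 13.01 CPM against 323 and 182 CPM, a log2 fold change of -4.22 ± 0.25 (edgeR adjusted p = 1.12e-06). Lpl was at 21.2 and 16.3 CPM against 187 and 151 CPM (-3.16 ± 0.29, adjusted p = 3.58e-05), and the phospholipase-like gene Plbd1 at 14.2 and 11.7 CPM against 92.3 and 87.7 CPM (-2.78 ± 0.21, adjusted p = 6.53e-06). Plbd1 lost its call when cells were thinned to 1000 UMIs. Of 13 MHC class II genes 7 were lower, H2-Eb1 at 990 and 569 CPM against 2773 and 2443 CPM (-1.73 ± 0.30, adjusted p = 0.00459). Lyz1, Cd52, Tmsb10 and the galectin gene Lgals3 were lower by 2.65, 2.19, 2.17 and 1.59, of which Lyz1 and Lgals3 lost the call with at least 3 markers. Of 15 monocyte markers 3 were lower, Ccr2, F10 and Hp, with a median of -1.57 and sums of 864 and 764 CPM against 2926 and 1084 CPM, and of 15 dendritic cell markers 1, Napsa. The part of such cells in the lower MHC class II genes was not tested.

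Connective tissue genes were among the lower ones. Col1a1 was at 70.4 and 46.2 CPM against 178 and 544 CPM, and Col1a2 and Sparc were lower by 2.27 and 1.82 on the log2 scale. Of the marker lists, 3 of 7 fibroblast genes and 4 of 7 smooth muscle genes were lower, with fibroblast sums of 558 and 334 CPM against 1024 and 2267 CPM and smooth muscle sums of 1104 and 1172 CPM against 4232 and 1762 CPM. Without cells that held a Myh11 UMI, 30 genes were higher and 93 lower. When Lyve1 was called on all UMIs of a cell, Col1a1, Col1a2 and Sparc turned to 1.45, 0.94 and 0.31. The part of fibroblast RNA in the other lower genes was not tested. Ccr2 and Lpl kept their call under every alternative tried, and H2-Eb1 lost it when 3 markers were required and when aorta 2 was left out of the Lyve1-positive cells.

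**Figure D5:**
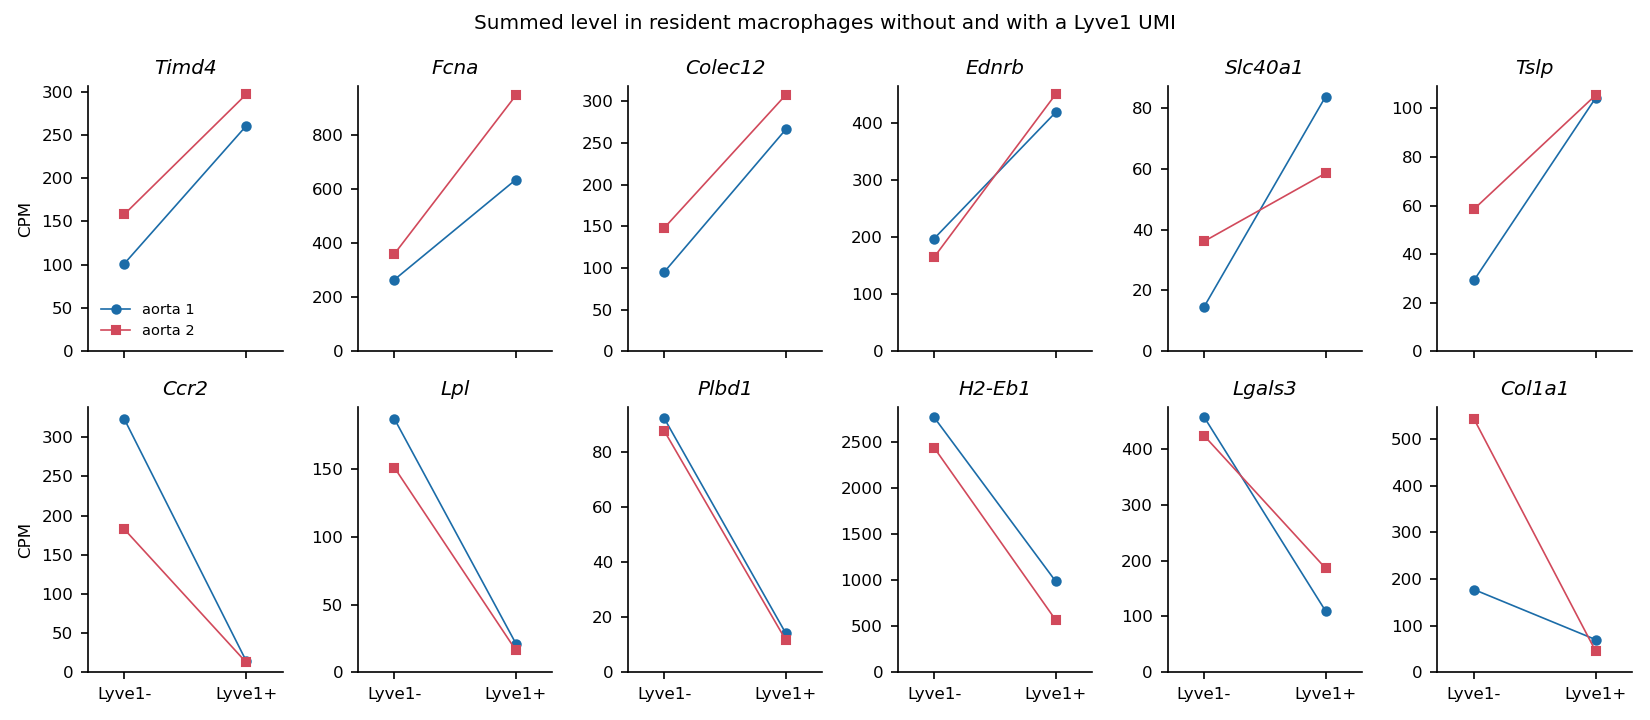
CPM of 12 genes in the resident macrophages without (Lyve1-) and with (Lyve1+) a Lyve1 UMI at 1000 UMIs per cell; a line joins both groups of the same aorta (circles, aorta 1, and squares, aorta 2). Timd4, Fcna, Colec12, Ednrb, Slc40a1 and Tslp are higher with Lyve1 in both aortas, and Ccr2, Lpl, Plbd1, H2-Eb1, Lgals3 and Col1a1 are lower in both.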

How the data were processed

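Per the labels and the study's methods, the authors made 1 droplet library (10x 3′ chemistry) per aorta and aligned reads with Cell Ranger 4.0.0 to mm10 with eGFP and tdTomato added. They deposited UMI counts per gene and cell. The submitters' notes also name Seurat 4.0. Cells were kept here with over 200 genes, 1000 to 25000 UMIs and under 10% mitochondrial UMIs. Scrublet (scanpy 1.11.5) removed no cell in the main results. The members and gene lists were chosen with earlier results of these data known.

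Raw counts were summed per aorta and group of cells and tested in edgeR 4.0.16 (R 4.3.3) by the quasi-likelihood test with TMM scaling, a filter by expression and cell group as the only term. The first comparison was fitted over 12 sums and the others over 14, which share 1 estimate of the spread. Beside the groups compared, these are sums of smooth muscle, fibroblast, endothelial and lymphocyte cells. The fits over 14 sums also hold further cells with Ptprc and Lyz2. Cells are not replicates, and with 2 aortas p-values rest on the spread between them over all these groups. Named genes were the 10 highest and 10 lowest called folds with at least 50 UMIs in each aorta of the higher group, without genes of the rule, mitochondrial, ribosomal and predicted genes, plus examples of each list. Where a group had no UMI, 3 counts over the group set the bound of a fold. Intervals of shares are exact Clopper-Pearson intervals at 95% and cover counting error only. Scripts were tested on simulated data. Clec7a was not analysed here.
Some items are not reported here.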

Additional observations from a re-analysis of the deposited data

How the results depend on the processing

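Across 177 pairs of a named gene and a comparison, 3004 values under alternatives were computed, of which 2859 kept direction and side of the threshold, 132 lost the call, 5 gained it and 8 reversed. The comparisons were not equally stable. All alternatives kept the main result for 58 of 76 named genes in the first comparison and 48 of 67 in the second. By Lyve1 they did so for 8 of 34. With 2 aortas and sparse genes, depth limits what low counts can show.

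Thinning each cell to 1000 UMIs left 792 genes lower against the other Ptprc and Lyz2 cells, 295 higher and 267 lower against the C1q-high cells with under 2 markers, and 18 higher and 41 lower by Lyve1; fewer UMIs enter that fit. With other cells under 5 C1q UMIs only, 1276 genes were higher, and the share of higher calls went from 29.8% to 46.6%; there Cd5l, Tgfbr1 and Cx3cr1 reversed to fitted log2 values of 10.18, 0.013 and 0.20. Against the C1q-high cells Ccr2 reversed to -1.64 with at least 3 markers, which also moved cells with 2 markers into the C1q-high group. Ccr2 moved between -0.55 and 0.61 when 1 aorta of the resident macrophages was left out. The Lyve1 comparison gave 82 higher and 441 lower genes without a low-count filter, 20 and 132 with the 2 groups only, 157 lower at 5000 UMIs, 12 and 91 with at least 3 markers, and 93 lower without Myh11 UMIs. With Lyve1 called on all UMIs 236 genes were higher, the share of higher calls went from 15.7% to 48.5%, and Col1a1, Col1a2 and Sparc reversed to 1.45, 0.94 and 0.31. The causes were not tested.

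The share of resident macrophages was 11.4% at under 5% mitochondrial UMIs and 7.03% without Myh11 UMIs. The eGFP share was 6.21% without Myh11 UMIs and 27.3% on all UMIs, and the Lyve1 share 73.0% with at least 3 markers and 86.5% on all UMIs. Leaving out 1 sum at a time gave 584 to 633 higher and 1100 to 1385 lower genes in the first comparison, 528 to 658 and 471 to 613 in the second, and 5 to 62 and 65 to 331 by Lyve1. With the aorta as a replicate block, since both groups come from the same animal (correlation of deviations 0.0768), the counts were 643 and 1530, 683 and 638, and 48 and 248. DESeq2 gave 550 and 1420, 565 and 687, and 33 and 278. An alternative chosen after seeing the data, without the Ptprc and Lyz2 requirement for the C1q-high cells, gave 652 and 640.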
